A study of Mus musculus with 26 samples.

Results

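Germ cells of the mouse fetal ovary at embryonic day E15.5 were taken from a single-cell survey of ovaries between E11.5 and E18.5. They were chosen as the cells that the deposited names place at E15.5 in the sorting gate called BVSC and that had under 100 CPM of Anxa5, the gene of annexin A5, where CPM are counts scaled to the same total in every cell. This gave 151 of the 1881 cells in the survey, from 161 E15.5 cells of that gate. The highest kept cells had 81.8 and 75.2 CPM of Anxa5, the lowest of the 10 cells left out had 100.1 and 153 CPM, and 76 kept cells had none. Anxa5 therefore chose the cells and is not a result.

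Germ cells of the fetal ovary stop dividing by mitosis and enter prophase of the first meiotic division. STRA8, induced by retinoic acid, is needed for entry; SPO11 then cuts DNA in both strands, strand-exchange and MSH4-dependent factors turn some breaks into crossovers, and the synaptonemal complex zips paired chromosomes together. While this happens the cells lose the pluripotency-associated genes of primordial germ cells and begin to express the first oocyte genes.

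All cells came from female fetuses of BVSC mice, which carry Blimp1-mVenus and Stella-ECFP reporter transgenes, so the stages share the transgenes and there is no group without them. Day E0.5 was the day of the vaginal plug, gonads of several embryos were pooled at each stage, and sorted cells were picked singly into a tagged reverse-transcription assay that reads the 3′ ends of transcripts and counts unique molecular identifiers (UMIs). The E15.5 germ cells lie in library 16 (R1, 90 of 94 gate cells kept) and library 18 (R2, 61 of 67 kept). They were set against 275 E14.5 germ cells of libraries 4, 5, 12 (R1) and 14 (R2), chosen by the same limit, and against 155 E16.5 germ cells of libraries 20 (R1) and 22 (R2). No source used here gives the numbers of embryos or says what the letters C, D and P in the cell names mean. Libraries of 1 stage may come from the same pooled embryos, so a p-value here sets a difference against how much libraries vary, and that variation may be technical.

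An E15.5 germ cell had a median of 257757 deposited UMIs (20140 to 624424). The expression table used here holds 16344 genes, nearly all from chromosomes 1 to 7, 10 and X. Over all 1881 cells of the survey it carries between 40.1% and 56.4% of a cell's deposited UMIs. For the summed E15.5 germ cells it carries 51.7% in library 16 and 51.5% in library 18. Genes outside it, Ddx4, Dazl, Pou5f1, Rec8 and Dmc1 among them, were not analysed here. The share of gate cells left out by the Anxa5 limit was 4.26% and 8.96% in the E15.5 libraries, 0% to 4.76% at E14.5, and 22.9% and 12.0% at E16.5. No cell name or count profile occurred more than once among the E15.5 cells, although 57 barcode numbers were used in both E15.5 libraries. Below, values per library follow the order of library number (16 and 18 at E15.5, 4, 5, 12 and 14 at E14.5, 20 and 22 at E16.5) and are CPM of the summed UMIs of the kept cells. In such sums, fewer cells with a transcript and less RNA per cell cannot be told apart.

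The cells carried the marks of germ cells. The 11 measured germ-line genes of the identity list summed to 9655 and 11048 CPM in the E15.5 germ cells, against 2047 and 129.1 CPM in the cells of the Negative gate at E15.5 (libraries 17 and 19). Markers of gonadal somatic cells summed to 114 and 130 CPM, against 3409 and 4683 CPM in the Negative cells. The 2 gates thus do not overlap in either sum. The somatic list includes Anxa5, whose limit was set on the germ cells alone, so part of that gap follows from how the cells were chosen. The germ-line list includes Dppa3, a gene that lends its control region to 1 of the reporter transgenes. The endothelial gene Emcn, the embryonic globin Hbb-bh1 and the macrophage genes C1qa and C1qb had no UMI in either E15.5 germ cell pool. Other members of their lists did: endothelial markers summed to 10.5 and 49.5 CPM, against 159.7 and 135 CPM in the Negative cells. Erythroid markers summed to 75.9 and 39.7 CPM, against 140.05 and 100.05 CPM, and macrophage markers to 5.07 and 15.46 CPM, against 7.36 and 35.8 CPM. None of the somatic, blood, macrophage and dissociation-response markers passed edgeR's test between E15.5 and E14.5, while DESeq2 called 1 erythroid and 1 macrophage marker lower at E15.5.

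The genes that name the stage were Spo11, M1ap, Lypd4 and Dmrtc2, which were picked from these data; their levels are given as a description without a test. Spo11, the break-making enzyme (chr2:172977700-172993576, plus strand, mm10), had 659 and 303 CPM at E15.5, against 88.4, 42.8, 79.3 and 118 CPM at E14.5. It had 681 and 528 CPM at E16.5, so its E15.5 pools lay above E14.5 and only library 16 reached the E16.5 range. M1ap (chr6:82946902-83030309, plus strand), needed for crossover formation in mouse spermatocytes, had 1285 and 1084 CPM at E15.5, against 703, 427, 672 and 584 CPM at E14.5 and 688 and 547 CPM at E16.5.

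M1ap was thus highest at E15.5 with no overlap on either side. Dmrtc2 (chr7:24870057-24877651, plus strand), a DM-domain gene needed in mouse for male meiotic prophase, had 851 and 728 CPM at E15.5, against 438, 155, 339.8 and 355 CPM at E14.5 and 622 and 473 CPM at E16.5. Lypd4 (chr7:24864620-24869941, minus strand), a sperm-surface protein gene that begins next to Dmrtc2 and runs the other way, had 344 and 391 CPM at E15.5, against 185, 87.9, 159 and 171 CPM at E14.5 and 206 and 142 CPM at E16.5. Both neighbours were thus higher in both E15.5 libraries than in any E14.5 or E16.5 library. So were 5.82% of the 9997 genes tested, and these genes were picked from these data. The 4 genes together made 3139 and 2506 CPM in E15.5 germ cells, against 567 and 13.9985 CPM in E15.5 Negative cells.

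**Figure D1:**
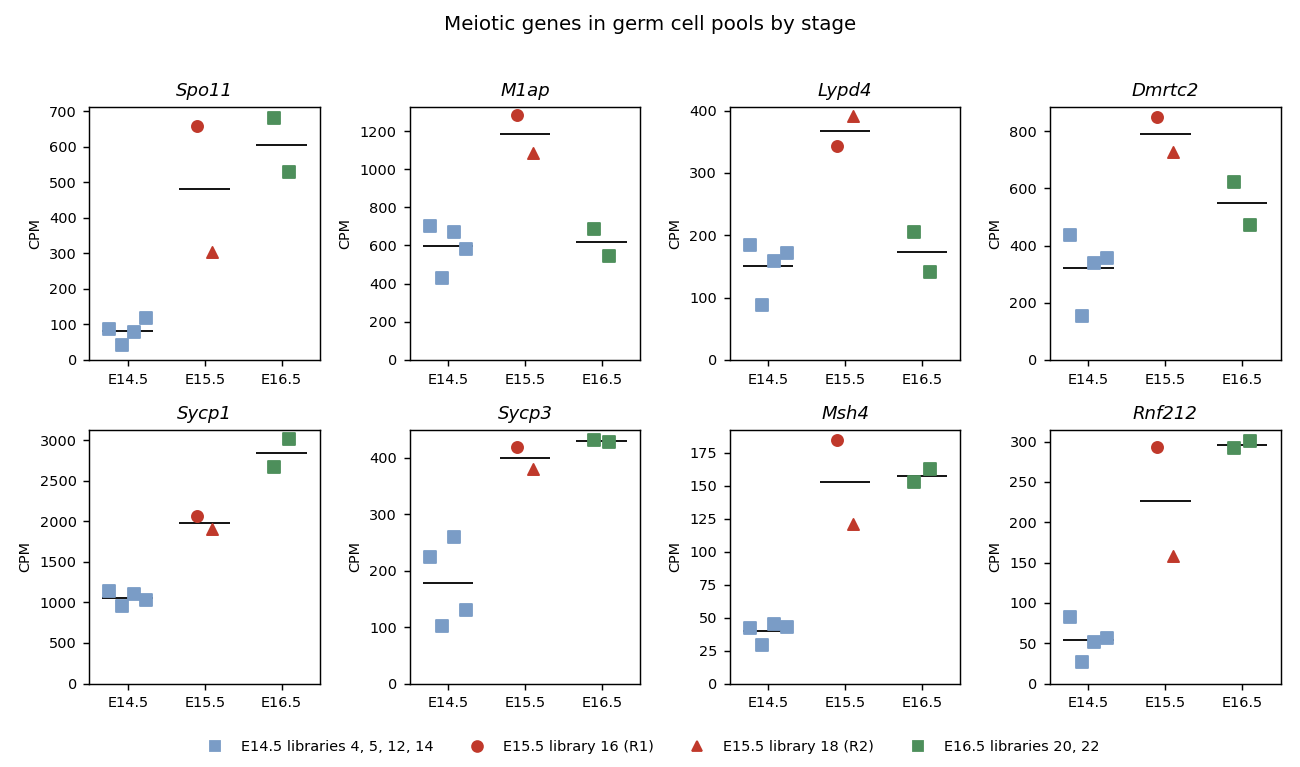
Each point is 1 library's summed germ cells, in CPM on a linear axis from 0, at E14.5, E15.5 and E16.5, and black lines are stage means. M1ap, Lypd4 and Dmrtc2 are highest at E15.5, while Sycp1 is above E14.5 and below its E16.5 values of 2671 and 3018 CPM.

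The 2 E15.5 libraries did not stand at the same point between their neighbours. On log2(CPM + 1), 985 of 9997 genes differed by more than 4-fold between libraries 16 and 18, against 102 between the R1 and R2 pools at E14.5 and 397 at E16.5. Among all stages E18.5 had more such genes, 1396, and the other stages between 102 and 661. On log2(CPM + 5), a setting chosen after seeing the data, the counts were 194 at E15.5, 2 at E14.5, 18 at E16.5 and 434 at E18.5. With 1 library for each replicate this difference has no replicate check. A measure added after seeing the data placed each pool between its neighbours, over 1292 genes that differed between E16.5 and E14.5 in a fit without any E15.5 cell. Library 16 stood a median 93.4% of the way toward E16.5 (quartiles 69.6% to 114%) and library 18 stood 40.6% of the way (23.5% to 60.6%).

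Single cells showed the same order. This is no separate check, since the pools sum these same cells and both measures use nearly the same genes. For each cell the UMIs of the genes higher at E16.5 were expressed as a share of the UMIs of all genes counted, called the late share here; 572 higher and 708 lower genes of that measure were counted, since genes examined in single cells were left out. Its median was 69.9% in library 16 cells (32.7% to 82.1%) and 42.7% in library 18 cells (12.0% to 72.1%). The E14.5 library medians ran between 12.52% and 17.8%, and those at E16.5 were 72.6% and 74.3%. In library 16, 81 of 90 cells (90%) were at or above the 5th percentile of E16.5 cells, a late share of 53.6%, and in library 18 it was 23 of 61 (37.7%). Library 18 was thus the more mixed sample: 29 of its 61 cells (47.5%) exceeded the 95th percentile of E14.5 cells, 45.0%, and in library 16 it was 86 of 90 (95.6%). The letters in the cell names moved with this in library 18, where the 28 cells marked C had a median late share of 58.5% and the 28 marked D one of 36.9%; in library 16 the medians for C, D and P were 71.3%, 70.4% and 68.8%. Library 18 has only 5 P cells, against 29 in library 16, and the part of this in the results was not tested.

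**Figure D2:**
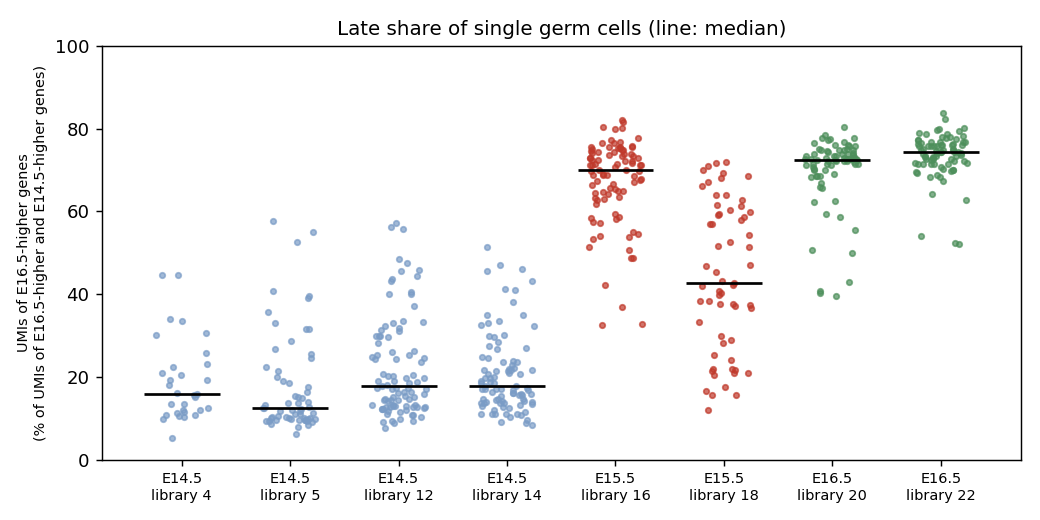
Each point is 1 germ cell and each line a library median of the late share, the percent of UMIs of E16.5-higher genes among UMIs of E16.5-higher and E14.5-higher genes. Library 16 (median 69.9%) lies near the E16.5 libraries, and library 18 (median 42.7%) is spread between 12.0% and 72.1%.

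Between E15.5 and E14.5, 397 genes were higher at E15.5 (3.97% of the 9997 tested) and 320 were lower (3.2%), 717 (7.17%) in all, with a median log2 fold change of 0.00 over all genes. A gene passed where edgeR's quasi-likelihood test gave a Benjamini-Hochberg adjusted p under 0.05. Without library 16, 29 genes were higher (0.266%) and 7 lower (0.0643%), 35 of these 36 being among the 717. Without library 18, 515 were higher (4.7%) and 772 lower (7.04%), 629 of these 1287 being among the 717. The lone E15.5 library is then assumed to vary like the other stages. Of the 60 named genes that passed, 10 passed under every one of 20 alternatives. They were Spo11, Tet1, Gria2, Slc26a7, Lrrc69, Gc, Ldoc1, Pon3, Hmgn5 and Speer4a. All 10 were named through their values in these same data, so their passing again is no independent support. The others lost the call in at least 1 setting, 35 of them with libraries merged by stage and replicate. Most of the others also lost it without library 16, which leaves 1 library at E15.5. The main fit counted each E14.5 library as a separate pool, although most of those libraries share the replicate name R1.

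**Figure D3:**
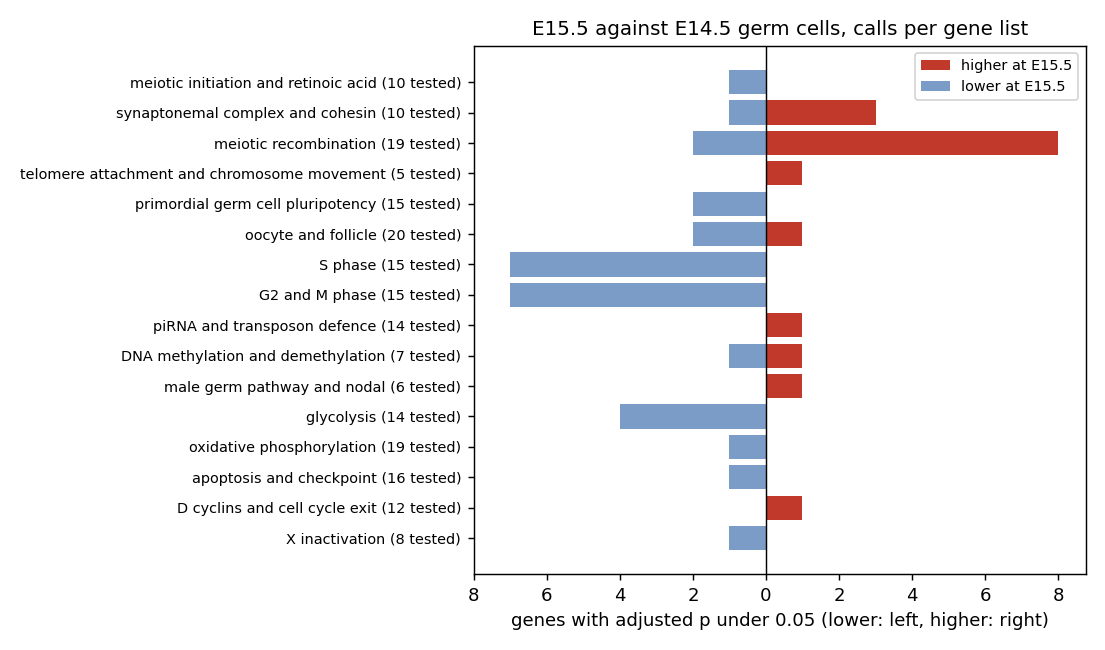
Bars count the genes of each list with adjusted p under 0.05 between E15.5 and E14.5 germ cells, higher at E15.5 to the right and lower to the left, with the number tested in brackets. Recombination has the most higher genes (8 of 19), and S phase and G2 and M phase each have 7 lower genes of 15. The 8 include Spo11 and M1ap, which were picked from these data. Over all tested genes 3.97% were higher and 3.2% lower.

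The list with the most rising members was that of genes that make and repair meiotic breaks, which is also longer than most. Of 19 measured recombination genes, 8 rose and 2 fell, a median log2 fold change of 0.46, beside the backgrounds of 3.97% and 3.2%. Spo11 and M1ap are 2 of the 8 and were picked from these data, so they add no support to this count. Msh4, which with MSH5 stabilises crossover intermediates, had 184 and 121 CPM at E15.5, against 42.1, 28.9, 44.8 and 42.7 CPM at E14.5. Its log2 fold change was 1.89 ± 0.47 (SE; adjusted p = 0.0199), and its E16.5 values were 153 and 163 CPM. Hfm1, a DNA helicase needed for crossovers, had 724 and 459.5 CPM at E15.5, against 206, 93.0, 264 and 231 CPM at E14.5 (1.53 ± 0.34, adjusted p = 0.0118).

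Every one of those E15.5 pools lay above every E14.5 pool. That is usual among called genes, since 569 of the 717 had no overlap and a mean of at least 20 CPM in 1 stage. The share without overlap over all tested genes was not counted. Rnf212, whose SUMO-ligase-like protein marks future crossovers, had 294 and 159 CPM at E15.5, against 82.5, 27.3, 50.9 and 56.6 CPM at E14.5 (2.00 ± 0.55, adjusted p = 0.0328). AI481877, the symbol used here for the crossover gene Shoc1, had 239.8 and 202 CPM at E15.5, against 77.4, 31.1, 96.4 and 81.2 CPM at E14.5 and 178 and 161 CPM at E16.5 (1.58 ± 0.37 over E14.5, adjusted p = 0.0139). Tex11, an X-linked crossover gene, had 507 and 271 CPM at E15.5, against 209.6, 69.3, 195 and 214 CPM at E14.5 (1.13 ± 0.34, adjusted p = 0.0495). Mcmdc2, a relative of the replicative helicase that acts in meiotic strand invasion, had 208 and 106 CPM, against 47.2, 30.1, 52.7 and 72.5 CPM (1.59 ± 0.39, adjusted p = 0.0183).

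The 2 recombination genes that fell also serve DNA replication and repair in dividing cells. Exo1, an exonuclease that resects breaks, had 89.6 and 101 CPM at E15.5, against 213, 205, 171 and 189.9 CPM at E14.5 (−1.10 ± 0.25, adjusted p = 0.0118). Rpa2, a subunit of the single-strand binding protein RPA, had 418 and 620.3 CPM at E15.5, against 946, 983, 874 and 835 CPM at E14.5 (−0.87 ± 0.26, adjusted p = 0.0477). Brca2, Blm, Fancd2, Nbn, Mnd1, Zcwpw1, Prr19 and Rpa3 did not pass the test. For Msh4, Hfm1, Rnf212, AI481877, Tex11 and Mcmdc2 the log2 fold changes without library 16 were 1.57, 1.18, 1.51, 1.47, 0.63 and 1.05. Without library 18 they were 2.17, 1.82, 2.39, 1.70, 1.52 and 2.00. Those of Exo1 and Rpa2 were −0.995 and −0.60 without library 16, and −1.18 and −1.19 without library 18. Only 1 of the 19 genes passed with libraries merged by stage and replicate, among 154 calls over all genes. That gene was Spo11, one of the genes picked from these data.

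Structural genes of the chromosome axis and synaptonemal complex were higher in part. Of 10 measured, 3 rose and 1 fell, beside the backgrounds of 3.97% and 3.2%, with a median log2 fold change of 0.69. Sycp1, the transverse filament that joins paired axes, had 2059 and 1908 CPM at E15.5, against 1142, 950.1, 1097 and 1032 CPM at E14.5 (0.85 ± 0.21, adjusted p = 0.0194), with the E16.5 pools higher still at 2671 and 3018 CPM. Sycp2, a lateral element protein, had 879 and 717 CPM, against 343, 102, 256 and 278 CPM at E14.5 (1.65 ± 0.44, adjusted p = 0.0255). Its partner Sycp3 had 419.7 and 379 CPM, against 223, 101, 259 and 129.7 CPM at E14.5 (1.11 ± 0.33, adjusted p = 0.0492).

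All 3 had the E15.5 pools above every E14.5 pool. Sgo2a, the shugoshin that protects centromeric cohesin, fell to 44.6 and 37.4 CPM at E15.5, against 72.0, 79.5, 121 and 70.1 CPM at E14.5 (−1.12 ± 0.31, adjusted p = 0.0305). Hormad1, an axis protein that promotes breaks, had 1187 and 1184 CPM at E15.5, against 849, 619, 789 and 659.6 CPM at E14.5 and did not pass the test. Syce1, Stag3, Rad21l, Smc1a and Pds5b did not pass either. With libraries merged by stage and replicate, none of the 10 genes passed, among 154 calls over all genes. None of the list passed without library 16.

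In each of the next lists only 1 gene passed, beside 3.97% higher and 3.2% lower over all tested genes. A single call in a list this short says little about the list. None of these calls was kept with libraries merged by stage and replicate. Of 5 genes that tether telomeres to the nuclear envelope, Terb2 rose, with 303 and 189 CPM at E15.5, against 105, 72.6, 111 and 101 CPM at E14.5 (1.28 ± 0.36, adjusted p = 0.0336). Of 14 piRNA and transposon-defence genes, Gpat2, which acts in piRNA production in mouse testis, rose to 866 and 693 CPM at E15.5, against 343, 275, 457 and 438 CPM at E14.5 (0.99 ± 0.23, adjusted p = 0.0127). Gpat2 was lower again at E16.5, with 600.3 and 499 CPM, so it too was highest at E15.5. Of 12 cyclin D and cell-cycle exit genes Ccnb3, a meiotic cyclin, rose to 551 and 162 CPM, against 43.1, 72.3, 67.6 and 50.7 CPM at E14.5 (2.53 ± 0.48, adjusted p = 0.00618), and library 16 alone came near the E16.5 values of 809 and 1062 CPM.

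The region around the start of some of these genes holds sequence that proteins known for meiotic and cell-cycle control bind. STRA8 with its partner MEIOSIN has been reported to bind promoters holding CNCCTCAG, and GGCGGGA is a common form of the E2F site. The windows of Sycp1, M1ap and Hfm1, all higher at E15.5, are shown because they hold different sets of matches, with capitals marking matches on either strand, from 250 bases before to 50 after the RefSeq gene start (GRCm38.p6), read 5′ to 3′ along the gene. Sycp1 is at chr3:102936051-102936350 (minus strand), M1ap at chr6:82946672-82946971 (plus strand) and Hfm1 at chr5:106925841-106926140 (minus strand).
Sycp1: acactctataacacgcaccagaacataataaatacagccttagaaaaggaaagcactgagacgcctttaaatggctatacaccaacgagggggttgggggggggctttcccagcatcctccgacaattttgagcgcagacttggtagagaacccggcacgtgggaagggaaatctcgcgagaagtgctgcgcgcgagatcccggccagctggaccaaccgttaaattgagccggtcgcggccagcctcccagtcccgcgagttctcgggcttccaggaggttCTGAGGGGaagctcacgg
M1ap: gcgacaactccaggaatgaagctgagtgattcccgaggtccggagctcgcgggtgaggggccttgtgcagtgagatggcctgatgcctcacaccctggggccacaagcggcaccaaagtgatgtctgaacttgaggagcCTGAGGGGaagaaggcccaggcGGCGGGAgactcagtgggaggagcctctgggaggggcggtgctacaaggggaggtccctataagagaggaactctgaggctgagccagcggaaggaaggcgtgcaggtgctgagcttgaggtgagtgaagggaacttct
Hfm1: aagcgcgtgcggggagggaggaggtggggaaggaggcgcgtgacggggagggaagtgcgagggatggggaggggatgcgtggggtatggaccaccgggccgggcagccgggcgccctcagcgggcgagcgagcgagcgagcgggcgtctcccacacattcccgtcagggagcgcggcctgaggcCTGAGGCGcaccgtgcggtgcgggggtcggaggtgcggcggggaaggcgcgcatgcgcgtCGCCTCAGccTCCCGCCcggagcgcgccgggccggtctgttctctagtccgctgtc
The Sycp1 window holds 1 CNCCTCAG match and no GGCGGGA, the M1ap window 1 of each, and the Hfm1 window 2 CNCCTCAG matches and 1 GGCGGGA. These letters are common. CNCCTCAG occurred in 12.9% of the 302 genes higher at E15.5 that have a window, in 7.27% of 275 lower genes and in 11.2% of all 7602 tested genes with one. GGCGGGA occurred in 18.2% of the higher genes, 27.3% of the lower genes and 20.5% of all. In the recombination list 2 of 11 genes with a window held CNCCTCAG and 4 of 11 held GGCGGGA. A match describes the letters in this window and is no evidence of binding.

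Of 10 measured genes of meiotic entry and retinoic acid response, 1 fell and none rose, beside the backgrounds of 3.2% and 3.97%, with a median log2 fold change of −1.11. Stra8 (chr6:34920163-34939344, plus strand) had 442 and 929 CPM at E15.5, against 1669, 1134, 1265 and 1195 CPM at E14.5 and 166 and 144 CPM at E16.5. Both E15.5 pools lay between the neighbouring stages, and the log2 fold change over E14.5, −1.001 ± 0.75, did not pass edgeR's test (adjusted p = 0.434). Gm4969, the gene of the STRA8 partner MEIOSIN, had 68.4 and 61.7 CPM at E15.5, against 75.6, 29.1, 57.0 and 28.3 CPM at E14.5, so the stages overlapped. Id3, a target of BMP signalling, fell to 305 and 489 CPM, against 1005, 1079, 746 and 889 CPM at E14.5 (−1.30 ± 0.30, adjusted p = 0.0128). The retinoic acid binding protein gene Crabp2 had 8.95 and 112 CPM at E15.5, against 183, 172, 123 and 102 CPM at E14.5, and Msx1, a BMP-responsive homeobox gene, had 50.9 and 196 CPM, against 345, 201, 265 and 303 CPM. The log2 fold changes of Crabp2, Msx1, Gata2 and Id3 were −4.09, −2.50, −2.23 and −1.67 without library 18. They were −0.43, −0.55, −1.06 and −0.98 without library 16. With libraries merged by stage and replicate, none of the 10 genes passed.

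Stra8 varied widely from cell to cell. Single library 16 cells had between 0 and 5565 CPM, with a median of 119 CPM, and library 18 cells between 43.5 and 6183 CPM, with a median of 880 CPM. Within each library it was lower in cells with a higher late share (Spearman rho −0.52 over 90 cells and −0.54 over 61 cells), while rho with the cell's UMI total was 0.18 and −0.06. Of 3878 genes compared across library 16 cells, those most like Stra8 by rho were the testis tubulins Tuba3b (0.65, with 0.24 in library 18) and Tuba3a (0.62, with 0.41 in library 18) and the X-linked Xlr3a (0.60, with 0.53) and Xlr3b (0.60, with 0.43). Chd2, a chromatin remodeller, was the most opposed (−0.55, with −0.20 in library 18). These genes were chosen after their values were seen, the cells of a library share their depth and preparation, and near-identical copies such as Tuba3a with Tuba3b and the Xlr3 genes may share reads.

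After each cell was thinned to 20000 UMIs, 77.3% of library 16 cells (68 of 88) and 100% of library 18 cells (59 of 59) had a Stra8 UMI, against 98.3% to 100% in the E14.5 libraries. The difference of means was −10.9 percentage points (two-sided exact permutation p = 0.667). In E15.5 Negative cells the share was 28.9% in library 17 and 0 of 39 in library 19, which allows a share of up to 7.69%. Some library 17 Negative cells were rich in germ-line transcripts. Before thinning, 2 cells held 59.3% of the Stra8 UMIs there, and single cells reached 2573 CPM of Sycp1 and 1802 CPM of M1ap. Cells under 20000 UMIs, 2 in each E15.5 library, were left out. The E16.5 shares of 60% and 38.5% lie below both E15.5 shares. Without thinning the E15.5 shares were 98.9% and 100%, and the difference from E14.5 was −0.139 points.

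Genes of primordial germ cells and pluripotency had the lowest median of the germ-line lists, −1.91 on the log2 scale over 15 genes. Of these, 2 fell and none rose, beside the backgrounds of 3.2% and 3.97%. Tfap2c, a transcription factor of germ cell specification, had 6.94 and 44.5 CPM at E15.5, against 74.7, 229, 146 and 139 CPM at E14.5 (−2.59 ± 0.58, adjusted p = 0.0118), and was almost absent at E16.5 with 0.75 and 0.664 CPM. Kit, the receptor that supports germ cell survival, fell to 29.1 and 55.8 CPM, against 121, 139.9, 179.8 and 166 CPM at E14.5 (−1.89 ± 0.33, adjusted p = 0.00292). Kit had 87.6 and 107 CPM at E16.5, so both E15.5 pools lay below both sides.

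Several of the others differed between the E15.5 libraries. Dppa3, which encodes Stella and lends its control region to 1 of the reporter transgenes, had 43.7 CPM in library 16 and 885 CPM in library 18, against 1118, 1494, 975 and 1095 CPM at E14.5 and 24.9 and 92.2 CPM at E16.5. Utf1, a chromatin factor of pluripotent cells, had 27.4 and 412 CPM at E15.5, against 448, 764, 564 and 517 CPM at E14.5, and Sox2 had 0 and 31.9 CPM, against 108, 181, 139 and 163 CPM. For Dppa3 and Utf1 library 16 was close to E16.5 and library 18 just under the lowest E14.5 pool, while Sox2 in library 18 lay well under E14.5. Prdm1, Tfcp2l1 and Klf4 showed no such division, and Prdm1, a repressor of the somatic program, had 16.8 and 15.1 CPM at E15.5, against 19.6, 56.2, 81.9 and 52.3 CPM at E14.5. The log2 fold changes of Tfap2c, Kit, Dppa3 and Utf1 were −1.78, −1.48, −0.46 and −0.53 without library 16. They were −4.48, −2.44, −4.81 and −4.45 without library 18. Merging libraries by stage and replicate left 2 of the 15 genes passing as lower, among 154 calls over all genes.

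**Figure D4:**
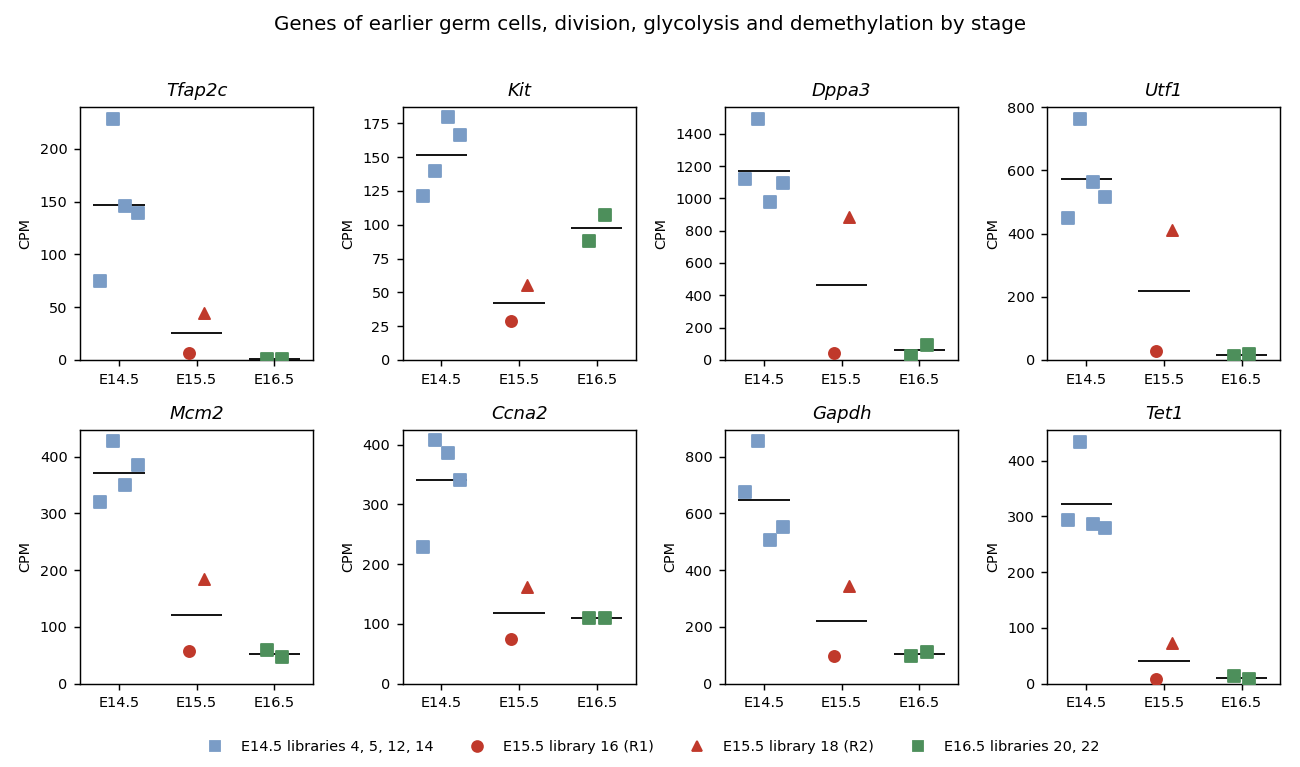
Each point is 1 library's summed germ cells, in CPM on a linear axis from 0, and black lines are stage means. Both E15.5 pools of Tfap2c, Kit, Mcm2, Ccna2, Gapdh and Tet1 are below every E14.5 pool. Dppa3 and Utf1 are far lower in library 16 (43.7 and 27.4 CPM) than in library 18 (885 and 412 CPM). Both genes are also low in the E16.5 pools.

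Tet1, a methylcytosine oxidase, fell furthest among the 7 DNA methylation genes. It had 8.28 and 73.4 CPM at E15.5, against 293, 433, 286 and 279.5 CPM at E14.5 and 13.1 and 7.96 CPM at E16.5. Its log2 fold change over E14.5 was −3.06 ± 0.61 (adjusted p = 0.00665), and the highest adjusted p among the 20 alternatives was 0.0398.

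The genes of cell division that passed were all lower at E15.5. Of 15 S-phase genes 7 fell and none rose (median log2 fold change −0.85), and of 15 genes of G2 and mitosis 7 fell and none rose (median −1.01), beside the background of 3.2% lower. Mcm2, a subunit of the replicative helicase, had 58.1 and 185 CPM at E15.5, against 320.0, 428, 350.4 and 385 CPM at E14.5 (−1.67 ± 0.36, adjusted p = 0.00946). Ccne1, the cyclin of replication onset, had 55.6 and 86.6 CPM, against 229, 224, 181 and 241 CPM (−1.68 ± 0.32, adjusted p = 0.00524). Rrm1, a subunit of the enzyme that makes deoxynucleotides, had 113 and 154 CPM, against 361, 312, 294 and 290.2 CPM (−1.30 ± 0.24, adjusted p = 0.00486).

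The helicase genes Mcm3, Mcm6 and Mcm7 and Tyms, for thymidylate synthesis, were the other S-phase genes that fell, while Pcna, Lig1 and Slbp did not pass the test. Among mitotic genes Ccna2, a cyclin of S and G2 phase, had 74.3 and 162 CPM at E15.5, against 228, 407, 386 and 341 CPM at E14.5 (−1.58 ± 0.32, adjusted p = 0.00699). Cenpa, the histone of centromeres, had 79.1 and 386 CPM, against 737, 945, 819 and 731 CPM (−1.85 ± 0.42, adjusted p = 0.0126). Nusap1, a spindle protein, had 97.6 and 124 CPM, against 268, 378, 318 and 285 CPM (−1.56 ± 0.31, adjusted p = 0.00639).

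Cdk1, Aurka, Plk1 and Ube2c also fell, and the proliferation marker Mki67 did not pass (log2 fold change −0.30, adjusted p = 0.632). Ccne2 and Bub1 had log2 fold changes of 0.59 and 0.47 without passing, and DESeq2 called 1 gene of the mitotic list higher. For Mcm2, Ccne1, Rrm1, Ccna2, Cenpa and Nusap1 the log2 fold changes without library 16 were −1.06, −1.38, −1.08, −1.11, −1.12 and −1.38. Without library 18 they were −2.74, −2.04, −1.54, −2.26, −3.42 and −1.75. Merged by stage and replicate, the libraries gave 4 lower genes of 15 in S phase and 2 of 15 in G2 and mitosis. That setting made 154 calls over all genes. In the 23 library 18 cells with a late share of at least 53.6% the median Mki67 was 359 CPM. It was 252 CPM in the 81 such library 16 cells. The median late share of these cells was 62.9% in library 18 and 71.3% in library 16.

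Of 14 measured glycolysis genes 4 fell and none rose (median log2 fold change −1.38), and of 19 oxidative phosphorylation genes 1 fell (median −0.19), beside a background of 3.2%. Whether the 2 lists differ was not tested. Hk2, the hexokinase that starts glycolysis, had 4.62 and 7.39 CPM at E15.5, against 41.2, 82.4, 32.8 and 43.5 CPM at E14.5 (−3.14 ± 0.64, adjusted p = 0.00756). Gapdh had 98.1 and 342 CPM, against 674, 855, 507 and 550.3 CPM (−1.63 ± 0.37, adjusted p = 0.0135). Tpi1 and Pgk1, later steps of the pathway, had log2 fold changes of −1.96 ± 0.46 and −1.05 ± 0.27 (adjusted p = 0.0145 and 0.0233).

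The oxidative phosphorylation gene that fell was Cox7b, a subunit of cytochrome c oxidase, with 153 and 397 CPM at E15.5, against 759, 1108, 795 and 769.8 CPM at E14.5 (−1.71 ± 0.35, adjusted p = 0.0072). The log2 fold changes of Hk2, Gapdh, Tpi1 and Pgk1 were −2.82, −0.98, −1.34 and −0.74 without library 16. They were −3.51, −2.79, −3.00 and −1.41 without library 18. After libraries were merged by stage and replicate, 1 of the 14 glycolysis genes passed, as lower, among 154 calls over all genes.

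Of 20 oocyte and follicle genes tested, 1 rose and 2 fell, with a median log2 fold change of 0.56; the shares over all genes were 3.97% and 3.2%. Nobox, a homeobox factor of early oocytes, had 15.1 and 7.8 CPM at E15.5, against 0.456, 0, 1.07 and 1.46 CPM at E14.5 (3.72 ± 0.93, adjusted p = 0.0198), and 24.2 and 81.3 CPM at E16.5. Figla, which drives zona pellucida genes in later oocytes, had 543 and 397 CPM at E15.5, against 235, 95.5, 196 and 161 CPM at E14.5 (1.39 ± 0.44, adjusted p = 0.0581).

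Figla thus did not pass the test over all genes. Its pools did not overlap between the 2 stages, a pattern whose share over all genes was not counted. The same was so of Lhx8, an oocyte transcription factor gene, with 31.0 and 17.3 CPM at E15.5, against 2.05, 9.54, 6.83 and 11.1 CPM at E14.5 (adjusted p = 0.0822). After thinning to 20000 UMIs, 94.3% and 88.1% of E15.5 cells had a Figla UMI, against 53.3%, 55.2%, 67.0% and 67.8% of E14.5 cells. The means were 91.2% ± 4.37 (SD, n = 2) and 60.8% ± 7.65 (SD, n = 4), and the two-sided exact permutation p of 0.133 is the smallest that 2 libraries against 4 allow. In E15.5 Negative cells the share was 33.3% in library 17 and 2.56% in library 19. Before thinning, 2 cells held 42.4% of the Figla UMIs of the library 17 Negative cells. Zp3, a zona pellucida gene, fell: it had no UMI at E15.5, against 0.228, 5.43, 4.06 and 0.767 CPM at E14.5, at least 18.2-fold lower with 3 counts over the E15.5 pools as the floor (adjusted p = 0.0313).

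Few genes passed in the other lists. Chek2, a checkpoint kinase of oocyte elimination in mouse, fell to 30.8 and 40.2 CPM at E15.5, against 63.3, 88.1, 96.9 and 92.4 CPM at E14.5 (−1.32 ± 0.33, adjusted p = 0.0198), the only call among 16 apoptosis and checkpoint genes, beside 3.2% lower over all genes. Eif2s3x, an X-linked translation factor that escapes inactivation in mouse, fell to 39.2 and 66.4 CPM, against 144, 206, 189 and 188 CPM (−1.84 ± 0.31, adjusted p = 0.00215), the only call among 8 X-inactivation genes. Xist had 8.35 and 5.92 CPM at E15.5, against 8.66, 4.24, 2.06 and 4.91 CPM at E14.5 and 30.2 and 18.7 CPM at E16.5. Of 11 germ-line identity genes 2 rose, Sycp1 and Sycp3, and 2 fell, beside 3.97% higher and 3.2% lower over all genes. The X-linked homeobox genes Rhox6 and Rhox9, members of a family of close copies that may share reads, fell to 156 and 388 CPM and to 153 and 449 CPM at E15.5, against 691 to 974 CPM and 887 to 1323 CPM at E14.5.

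Over the whole X chromosome 28 of 702 genes were higher at E15.5 (3.99%) and 39 lower (5.56%), and over the autosomes 3.97% were higher and 3.02% lower. Of 1395 long noncoding RNA genes 62 were higher (4.44%) and 12 lower (0.860%), and of 8546 protein-coding genes 3.88% were higher and 3.58% lower. The difference between these classes was not tested.

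Among the largest changes, several genes were close to absent on 1 side. Gria2, a glutamate receptor subunit gene, had 41.4 and 6.05 CPM at E15.5, against 0, 0, 0.0712 and 0 CPM at E14.5, a single UMI there. The ratio of summed counts per total was 1123 with a 95% counting interval of 200.8 to 44435. Gc, the vitamin D binding protein gene, rose to 603 and 166 CPM, against 8.2, 20.9, 7.62 and 28.9 CPM at E14.5 (4.47 ± 0.47, adjusted p = 5.96e-05), and its E16.5 values were 719 and 808 CPM.

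Both genes lay above every E14.5 pool in each E15.5 library, library 16 more so. Slc26a7, an anion transporter gene, had 24.2 and 16.3 CPM at E15.5, against 0, 0.132, 0.214 and 0 CPM at E14.5 (7.45 ± 1.35, adjusted p = 0.00388). Lrrc69, its neighbour on chromosome 4, had 65.9 and 22.5 CPM, against 0, 0.927, 1.49 and 2.92 CPM (4.91 ± 0.76, adjusted p = 0.00196). Other genes with large rises were Gm20512, Eqtn, 1700034P13Rik, Hoxaas3 and 1700009C05Rik, of which Eqtn, an acrosome protein gene, had 35.4 and 32.0 CPM, against 0, 0.265, 0 and 2.15 CPM.

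On the falling side Ldoc1, an X-linked gene derived from a retrotransposon, had no UMI at E15.5, against 36.9, 11.4, 23.7 and 30.3 CPM at E14.5. It was at least 178-fold lower with the floor of 3 counts over the E15.5 pools (adjusted p = 0.000179), and also had none at E16.5. Pon3, a paraoxonase gene, had none at E15.5, against 23.5, 24.2, 20.5 and 11.8 CPM at E14.5, at least 139-fold lower (adjusted p = 0.00121). Hmgn5, an X-linked nucleosome-binding protein gene, had 1.64 and 33.6 CPM at E15.5, against 151, 306, 228 and 181 CPM at E14.5 (−3.71 ± 0.70, adjusted p = 0.00503). Platr26, Kcnip3, Nlrp12, Gm32585, Ak1, Hk2 and Gm9112 complete the 10 largest falls.

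Between E15.5 and E16.5, which has 2 pools in place of the 4 at E14.5, 20 genes were higher at E15.5 (0.2%) and 1 was lower (0.01%). Without library 16 this comparison called 205 genes and that with E14.5 called 36. This comparison shares the E15.5 pools with the one above. Phlda2, an imprinted growth-limiting gene of placenta, had 2.68 and 337 CPM at E15.5, against 1.37 and 1.82 CPM at E16.5 (adjusted p = 0.0296), and 827, 1089, 794 and 744 CPM at E14.5. Fxyd5, a regulator of the sodium pump, had 65.0 and 154 CPM, against 4.5 and 12.9 CPM at E16.5 (log2 fold change 3.62, adjusted p = 0.0183). Tfap2c had a log2 fold change of 5.13 over E16.5 (adjusted p = 0.015) and Utf1 one of 3.83 (adjusted p = 0.0407).

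In Phlda2 and Utf1 the calls rest on library 18, since library 16 lay close to the E16.5 pools. Prdm14, a factor of germ cell specification, also passed, with 1.49 and 15.3 CPM at E15.5, against 0 and 0.166 CPM at E16.5 (adjusted p = 0.0346). Speer4a, a member of a testis gene family with close copies, was the gene that was lower, with 25.2 and 4.17 CPM at E15.5, against 103 and 227 CPM at E16.5 (−3.53, adjusted p = 0.0485). It had already risen over E14.5, where it had 0.0712 to 0.662 CPM (5.19 ± 0.68, adjusted p = 0.000319). Without library 18 none of Phlda2, Fxyd5, Tfap2c, Utf1 and Speer4a passed, and without E16.5 library 22 no gene did.

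No gene passed edgeR's test of E15.5 against the mean of E14.5 and E16.5 (0%); the lowest adjusted p was 0.175, 995 of 9997 genes had an unadjusted p under 0.05, and DESeq2 called 50 higher and 44 lower. As a description, 582 genes (5.82%) had both E15.5 pools above every E14.5 and E16.5 pool and 382 (3.82%) had both below. Members of the lists among the 582 were Syce1, Stag3, AI481877, M1ap, Prr19, Sun1, Bub1, Gpat2, Ndufs1, Sdhb, Bcl2l1, Lypd4, Dmrtc2 and the somatic and endothelial markers Nr5a1 and Kdr. Stag3, the meiotic cohesin subunit, had 812 and 645 CPM at E15.5, against 382, 278, 498 and 536 CPM at E14.5 and 616 and 489 CPM at E16.5. Syce1, a central element protein of the synaptonemal complex, had 1036 and 999 CPM, against 698, 595, 673 and 641 CPM at E14.5 and 829 and 768 CPM at E16.5.

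The genes that divided the E15.5 libraries most included genes known from earlier germ cells. Among genes reaching 50 CPM in either library, the largest differences on log2(CPM + 1) included Phlda2, Gstm3 (0 CPM in library 16 and 79.9 CPM in library 18), Rhox10 (0 and 75.02 CPM), Lin28a (1.12 and 58.3 CPM) and Sall4 (4.62 and 144 CPM). Sall4 and Lin28a are, with Dppa3, known from primordial germ cells and pluripotent cells. In the other direction Morn5 had 168 CPM in library 16 and 19.9 CPM in library 18. These genes were chosen after their values were seen.

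In single cells these genes were far more widely found in library 18, with some overlap between the libraries. Every library 18 cell had at least 372 CPM of Dppa3, whereas 33 of 90 library 16 cells had any Dppa3 UMI and the highest of them reached 678 CPM. Phlda2 was found in 60 of 61 library 18 cells and in 3 of 90 library 16 cells. In the 23 library 18 cells that had reached a late share of 53.6%, Dppa3 had a median of 596 CPM (372 to 1866), while in the 81 such library 16 cells the median was 0 CPM (0 to 347). These library 18 cells carried Spo11 at a median of 541 CPM and Gc at 308 CPM, beside 674 and 576 CPM in library 16. Among E16.5 cells at or above the same late share the Dppa3 medians were 0 and 17.3 CPM. These groups share only that lower limit. Their median late share was 62.9% in library 18, 71.3% in library 16, and 72.7% and 74.4% at E16.5. Neither the late share nor the genes that define it used Dppa3, Utf1, Phlda2, Spo11 or Gc.

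In Negative cells of E15.5, Dppa3 was found after thinning in 2.22% of library 17 and 10.3% of library 19, and Utf1 in 4.44% and 30.8%. Phlda2 went the other way, with 15.6% in library 17 and 2.56% in library 19. In germ cells the thinned Dppa3 shares were 17.05% in library 16 and 100% in library 18. The part of free RNA in this was not tested.

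**Figure D5:**
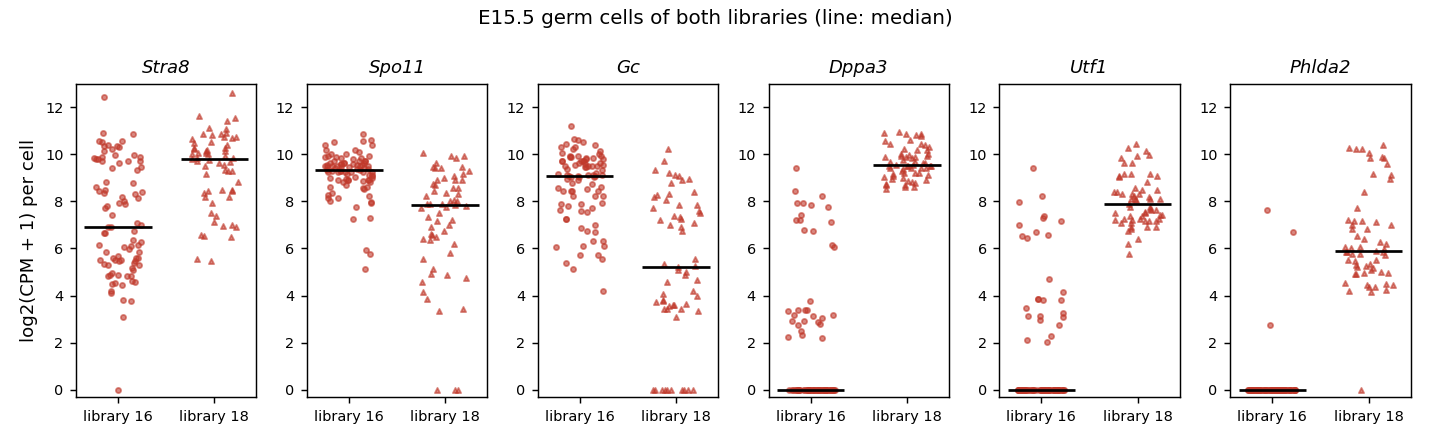
Each point is 1 E15.5 germ cell of library 16 (90 cells) or library 18 (61 cells), on log2(CPM + 1), and lines are medians. Dppa3 does not fall below 372 CPM in any library 18 cell, while most library 16 cells have no UMI of Dppa3, Utf1 or Phlda2.

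Dnmt3l, the cofactor of de novo DNA methylation that male fetal germ cells switch on, was found in E15.5 germ cells of library 18 alone. It had 0 and 56.6 CPM at E15.5, against 0, 0, 0 and 0.384 CPM at E14.5 and 0.75 and 7.3 CPM at E16.5. The test called it higher than at E14.5 (adjusted p = 0.0222), and without library 18 its log2 fold change was −3.19 (adjusted p = 0.534). In library 18, 53 of 61 cells had a UMI, and 2 cells, both marked P, held 65.8% of them, with 763 and 749.98 CPM. In the Negative cells of library 19, 27 of 39 had a Dnmt3l UMI (median 7.36 CPM), and in those of library 17 none of 46 had. At the neighbouring stages it was found in 4 of 91 cells of library 14 and in no cell of libraries 4, 5 and 12 at E14.5, and in 4 of 74 and 28 of 81 cells of libraries 20 and 22 at E16.5. Nanos2, a gene of the male germ line, had 0 and 17.9 CPM at E15.5, against 0, 0, 0 and 2.99 CPM at E14.5, with a UMI in 44 of 61 library 18 cells, in none of the 39 Negative cells of library 19 and in 27 of 91 E14.5 cells of library 14. Sohlh1, a factor of early oocytes and spermatogonia, had 0.746 and 48.7 CPM at E15.5, with 1.37, 1.32, 8.19 and 1.92 CPM at E14.5. At E16.5 it had 44.6 and 153 CPM, with a UMI in 39 of 74 and 65 of 81 cells, so it was not particular to library 18. At E15.5 a Sohlh1 UMI was found in 52 of 61 library 18 cells, 2 of 90 library 16 cells and 23 of 39 library 19 Negative cells. The same 2 P cells had 642 and 407 CPM of Sohlh1.

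Exons of Sycp3, Sgo2a, Mcmdc2, Ccna2, Nusap1, Gapdh, Tpi1, Dnmt3l, Nanos2 and Ube2c overlap those of other genes in the table, and whether strand was used in counting is not given in the sources used here, so reads of such neighbours cannot be told apart.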

How the data were processed

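The deposited table gives UMI counts per gene and cell; counts and totals per cell come from the authors' files. Per the submitters' processing notes, the tools named are CASAVA 1.8, UMI-tools, STAR, featureCounts and Subread with build mm10, with no roles or settings. Stage, gate and replicate were read from the deposited cell names, since the labels name none of them; every column could be assigned (columns of no sample: 0). The table's 1 incomplete gene entry was dropped. CPM are counts divided by their sum over the genes of the table and scaled to a common total. UMIs of kept cells were summed by library and stage into 18 pools of at least 5 cells. All 8 stages entered 1 edgeR 4.0.16 quasi-likelihood fit (R 4.3.3, TMM scaling, filterByExpr, 9997 genes), with Benjamini-Hochberg adjustment over all genes at 0.05. The code was tested on simulated data for E15.5 against E14.5. It recovered 11 of 50 genes set at 2-fold and 37 of 50 at 4-fold. At 0.5-fold it recovered 7 of 50 and at 0.25-fold 23 of 50, with 5 false calls. A gene that did not pass may therefore still differ. Shares of cells were compared by exact permutation over libraries. Intervals and floors of 3 counts are at 95% confidence and cover counting error only. Other work used Python 3.11.15, pandas 2.3.3 and scipy 1.17.1; gene positions are from GENCODE M21 (16252 of 16344 genes matched) and promoter sequences from RefSeq (GRCm38.p6). No doublet caller was run.

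Alternatives were DESeq2 1.42.0, other scalings and filters, other Anxa5 limits, merged replicates, fewer stages, thinning, leaving out each library, and R1 or R2 as a replicate block. The members, lists and named genes were chosen with earlier results of these data known. Named genes were the called members of the meiotic lists, up to 4 members with the smallest p in each other list, and the 10 largest rises and falls among called genes with a mean of at least 20 CPM in 1 stage and pools that do not overlap. A few genes that the rule names are not reported here.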

Additional observations from a re-analysis of the deposited data

Results flagged for a closer look

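The 113 named genes were searched for an E14.5 library far from the other 3, since only that stage has 4 pools; chance flags about 1 in 20 such groups, and 11 genes were flagged. Library 5 was the one apart for 5 genes. Smc1a had 624 CPM there (474 to 495 in the others), Tet1 433 CPM (280 to 293) and Cox7b 1110 CPM (759 to 795). Msh4 had 28.9 CPM there (42.1 to 44.8 in the others), and Tex11 had 69.3 CPM (195 to 214). Library 14 was apart for Pds5b with 194 CPM (131 to 140), Dnmt3l with 0.384 CPM (0 in the others), Nanos2 with 2.99 CPM (0 in the others) and Eqtn with 2.15 CPM (0 to 0.265). Jpx had 1.59 CPM in library 4 (0 to 0.132), and Gria2 had 0.0712 CPM in library 12, a single UMI (0 in the others).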

How the results depend on the processing

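The 717 genes called between E15.5 and E14.5 became 1316 with DESeq2, 1241 with no filter on low counts, 154 with libraries merged by stage and replicate, and 377 with libraries of 1 title prefix only; leaving out 1 library gave 36 (without library 16) to 1287 (without library 18), and 385 without E14.5 library 5. Against E16.5, 21 became 176, 274, 12 (mean of at least 10 CPM), 6 (merged) and 4 (no Anxa5 limit), and leaving out 1 library gave 0 (without library 22) to 205 (without library 16). Against the mean of both stages, 0 became 94 with DESeq2 and 118 with no filter, and leaving out 1 library gave 0 to 138, the highest without library 18. The Stra8 share differed by −22.3 to 0.431 points when 1 library was left out, turning direction without library 16, and the log2 fold change of Dnmt3l ran between −3.19 (without library 18) and 10.95 (without E14.5 library 14). With CPM + 5, a setting chosen after seeing the data, 194 genes in place of 985 differed over 4-fold between libraries 16 and 18. The cause of these differences was not tested.

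Of 1196 values for the 60 named genes called against E14.5, 1024 kept direction and call, 171 lost the call and 1 turned direction; of 1054 values for the 53 not called, 86 passed. For the 5 named genes called against E16.5, 59 of 100 values kept the call and 41 lost it.

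The sample labels give no replicate numbers, and the R1 and R2 of the cell names are not stated to mark a shared litter, batch or day. A fit with R1 or R2 as a replicate block, chosen after seeing the data, called 671 genes against E14.5 (629 of the 717), 10 against E16.5 and 0 against the mean. In it the named genes Dnmt3l and Tex11 lost their calls against E14.5, and Utf1, Phlda2 and Speer4a theirs against E16.5. The R1 minus R2 differences at E15.5 had a Pearson r of −0.0411 with those at E14.5 and 0.00109 with those at E16.5 across 9997 genes, which are not independent replicates.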
